A study of Homo sapiens with 2 samples.

Results

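The tripartite motif (TRIM) genes encode a large family of proteins, most of which are ubiquitin ligases. The 50 TRIM genes described here were taken by symbol from a table of read counts over 63677 Ensembl genes, and each matched 1 row. The table covers 2 libraries from HGC-27, a cell line of human gastric carcinoma, harvested when 48 hours had passed since plasmid transfection (INTERFERin reagent). The lncPSCA library came from cells given the plasmid pcDNA3.1-lncPSCA, which carries the long non-coding RNA lncPSCA. The control library came from cells given the empty pcDNA3.1 vector. Each group is 1 library of 1 cell line under transient transfection, and lncPSCA was expressed from a plasmid.

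A TRIM protein usually carries a RING finger, which recruits a ubiquitin-conjugating enzyme, followed by B-box domains and a coiled coil through which the proteins pair. The C-terminal domain differs between members and binds the target, which can be a viral capsid, a sensor of viral RNA, a histone or a cytoskeletal protein. Several members are known as interferon-induced genes or as restriction factors that act on viruses directly, while others work in chromatin silencing, in neurons or in muscle.

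The lncPSCA library held 23016646 counts and the control library 21552098. The table has 0 rows named lncPSCA. The row of the gene PSCA had 28699 reads in the lncPSCA library and 22 in the control library. Whether these reads came from the plasmid or from the cells' own PSCA gene cannot be told from the counts. They are not read as a change of that gene. Of the 7 markers listed for an epithelial carcinoma line, EPCAM, KRT18 and KRT19 had at most 7 reads in either library, while KRT8 (58 reads with lncPSCA and 66 in control), CDH1 (20 and 26 in that order) and CLDN4 (46 and 39) were low. The last, VIM (vimentin, a mesenchymal filament protein that many undifferentiated lines express), was at 2594 CPM with lncPSCA and 2601 CPM in control (CPM, counts scaled to a library of 1e+06). Of the 2 stromal markers, the collagen gene COL1A1 was at 1042 CPM with lncPSCA and 1112 CPM in control, and PDGFRB had 137 reads with lncPSCA and 59 in control. The 6 gastric mucosa markers summed to 4 reads in each library, the 2 endothelial markers to 0, and the 5 leukocyte markers to 6.25 CPM with lncPSCA and 5.50 CPM in control. Because a group is 1 library, the groups could not be tested against each other, p-values are not reported, and differences lack a check by replicates. In bulk RNA, a change in the share of cells that express a gene and a change in RNA per cell cannot be told apart.

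Differences were described by a size rule. A gene was called measured at a mean of at least 1 CPM over both libraries. It was called higher or lower when the difference was at least 2-fold with a pseudocount of 1 and the exact 95% counting interval of the fold lay wholly beyond 1.5-fold. Folds are lncPSCA over control. The intervals, given in brackets after each fold, cover counting error only and not the spread between cultures. In all, 15440 genes were measured, of which 3.02% were higher and 0.596% lower.

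Of the 50 TRIM genes, 40 were measured. In the lncPSCA library 9 of these were higher, TRIM16L alone was lower, and the other 30 did not meet the rule. Of the 9 higher genes, 8 belonged to the 11 antiviral TRIMs. This group was listed as textbook restriction factors, interferon-inducible members and regulators of antiviral sensing, with earlier results of these data known. The other 39 TRIMs contributed 30 measured genes, of which TRIM9 was higher and TRIM16L was lower. The median log2 ratio was 1.37 over the 10 measured antiviral TRIMs, 0.12 over the 30 other TRIMs and -0.02 over all measured genes. All 10 measured antiviral TRIMs had a log2 ratio above 0, against 18 of the 30 other TRIMs and 48.1% of all measured genes. One of the 10, TRIM22, reached the CPM minimum only through the lncPSCA library. Without it, 7 of 9 measured antiviral TRIMs were higher, with a median log2 ratio of 1.31.

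**Figure D1:**
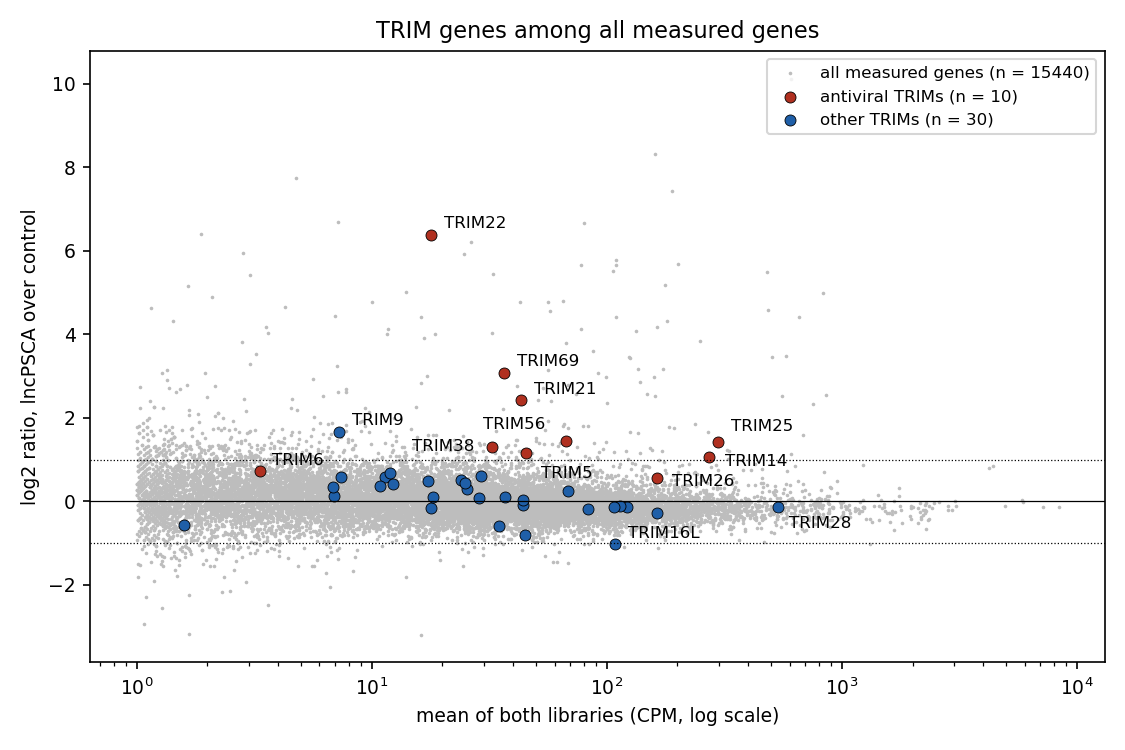
Log2 ratio of lncPSCA over control against the mean level of both libraries in CPM (log scale), for 15440 measured genes in grey, 10 antiviral TRIMs in red and 30 other TRIMs in blue; dotted lines mark 2-fold. TRIM22, TRIM69 and TRIM21 stand highest among the TRIMs, at 6.39, 3.09 and 2.42.

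TRIM22 (ENSG00000132274), an interferon-induced ligase known to repress HIV-1 transcription, had 834 reads in the lncPSCA library and 8 in the control library. These were 35.5 CPM with lncPSCA and 0.379 CPM in control, a fold of 93.6 (47.3 to 217). TRIM22 was the 1 member that reached the CPM minimum only through the lncPSCA library, so its inclusion required a difference. TRIM69 (ENSG00000185880), which restricts vesicular stomatitis virus, had 1542 reads with lncPSCA and 162 in control, or 65.6 and 7.68 CPM in that order, a fold of 8.54 (7.26 to 10.1). TRIM21 (ENSG00000132109), a cytosolic antibody receptor that directs antibody-coated virus to the proteasome, had 1719 reads with lncPSCA and 288 in control. It stood at 73.1 CPM with lncPSCA and 13.7 CPM in control, a fold of 5.36 (4.73 to 6.09). The intervals of these genes do not overlap, so their order was TRIM22, TRIM69 and TRIM21 within counting error.

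The remaining 5 higher antiviral TRIMs differed by between 2 and 3-fold. TRIM56 (ENSG00000169871), a ligase of the cGAS and STING pathway, had 2313 reads with lncPSCA and 765 in control, a fold of 2.71 (2.50 to 2.95). TRIM25 (ENSG00000121060), which ubiquitinates the RNA sensor RIG-I and is a cofactor of the antiviral protein ZAP, had 10251 reads with lncPSCA and 3405 in control, a fold of 2.70 (2.60 to 2.81). TRIM38 (ENSG00000112343), which acts on Toll-like receptor and nucleic acid sensor signalling, had 1085 reads with lncPSCA and 392 in control, a fold of 2.48 (2.21 to 2.80). The intervals of these 3 genes overlap, and their order is not resolved by the counts.

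TRIM5 (ENSG00000132256), which binds incoming retroviral capsids, had 1484 reads with lncPSCA and 592 in control, a fold of 2.25 (2.04 to 2.48). TRIM14 (ENSG00000106785), a RING-less member that serves as an adaptor at the mitochondrial protein MAVS, had 8619 reads with lncPSCA and 3724 in control. At 367 CPM with lncPSCA and 176 CPM in control, its fold of 2.08 (1.999 to 2.16) lay just inside the 2-fold limit. When a coefficient of variation between cultures of 0.2 was assumed, TRIM5, TRIM14 and TRIM38 no longer met the rule; at 0.4 this also held for TRIM25 and TRIM56. TRIM22, TRIM69 and TRIM21 met it under both. Whether counting used strand is not stated, so reads over bases shared with a gene on the other strand cannot be told apart. In GENCODE release 29 TRIM21, TRIM56 and TRIM69 share no exon bases with another gene. TRIM22 shares 10.7% of its own with OR56B1, TRIM5 shares 7.95% and TRIM14 shares 7.72% (with NANS, on the opposite strand). TRIM25 shares 2.29% on the same strand and 6.50% on the opposite strand, and TRIM38 shares 2.90% on the opposite strand.

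The other 3 antiviral TRIMs did not meet the rule. TRIM6 (ENSG00000121236), which makes unanchored ubiquitin chains that activate the kinase IKK-epsilon, had 98 reads with lncPSCA and 53 in control, a fold of 1.66 (1.18 to 2.36). TRIM26 (ENSG00000234127), which has been linked to the turnover of IRF3, had 4597 reads with lncPSCA and 2787 in control, a fold of 1.48 (1.41 to 1.55). Both counting intervals lay above 1. TRIM34 (ENSG00000258659), which restricts some lentiviral capsids together with TRIM5, had 0 reads in both libraries. In GENCODE release 29, 83.0% of the exon bases of TRIM34 are shared with the read-through gene TRIM6-TRIM34, whose row also held 0 reads. TRIM6 shares 29.3% of its exon bases with the same read-through gene, so neither value can be read as the full level of its gene; the part of this overlap in the counts was not tested.

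**Figure D2:**
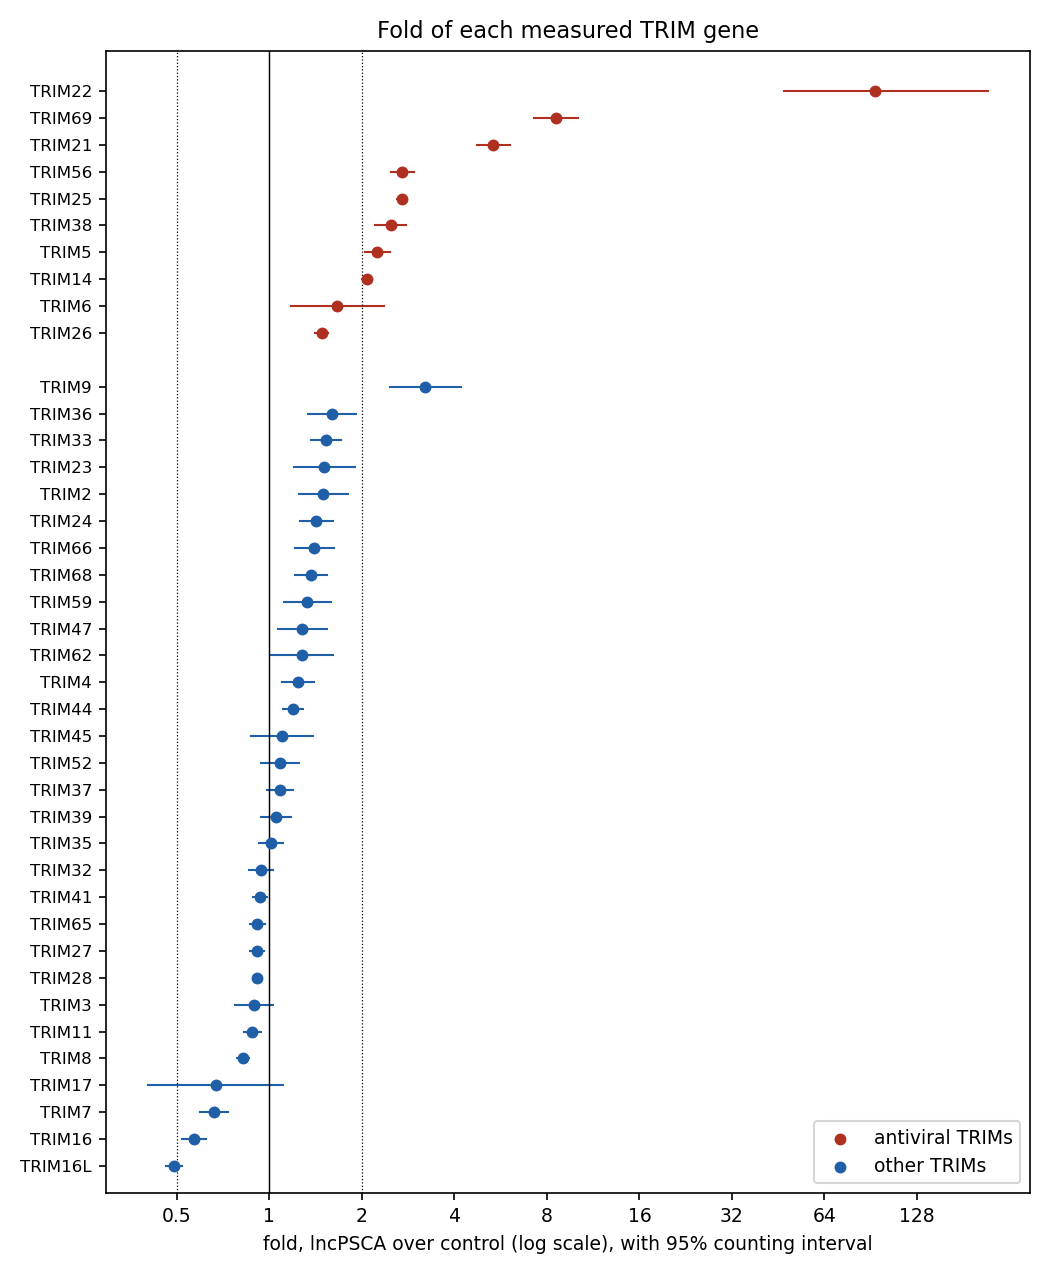
Fold of lncPSCA over control (log scale) for each of the 40 measured TRIM genes, with points at the ratio of CPM and bars for the exact 95% counting interval, antiviral TRIMs in red above other TRIMs in blue; dotted lines mark 2-fold. All 10 antiviral intervals lie above 1, from TRIM26 at 1.48 to TRIM22 at 93.6, and TRIM16L lies lowest at 0.491.

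Reads were also summed over the antiviral TRIMs, without scaling by gene length, so long and abundant genes weigh most in the sums. The 11 genes together had 32542 reads in the lncPSCA library and 12176 in the control library, a fold of 2.40 (2.35 to 2.45), and without TRIM22 the fold was 2.34 (2.29 to 2.39). They made up 44.9% (Wilson 95% interval 44.5 to 45.3) of all TRIM reads with lncPSCA and 23.8% (23.4 to 24.1) in control. The 39 other TRIMs together had 39934 reads with lncPSCA and 39058 in control, a fold of 0.918 (0.905 to 0.931). Their median log2 ratio was 0.12, on the other side of 0 from the sum. TRIM28 alone, one of these genes, made up 16.6% of all TRIM reads with lncPSCA and 23.1% in control. All 50 genes took 0.315% of counts in the lncPSCA library and 0.238% in the control library.

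Promoter windows from RefSeq were searched because several of these genes differed together and because interferon-induced genes are known to carry an interferon-stimulated response element near their start. The windows, on build GRCh38.p14, reach from 250 bases before each gene's start to 50 bases after it. The core searched was 2 copies of GAAA with any 2 bases between them, on both strands, with overlapping matches counted separately. Windows were given for 37 of the 50 TRIM genes; TRIM4, TRIM8, TRIM11, TRIM13, TRIM16L, TRIM22, TRIM24, TRIM27, TRIM28, TRIM29, TRIM35, TRIM45 and TRIM55 had none. The core was present in 6 of 10 antiviral TRIMs and in 3 of 27 other TRIMs, against 4.38% of all 27305 genes with a window and 3.57% of all 35116 windows. A gene counted when any of its windows held the core, and genes differ in their number of windows. Of the genes with the core, TRIM2 has 6 windows and TRIM34 has 2, so shares per gene are not on an equal footing. Because the antiviral list was drawn partly by interferon inducibility, its share is not independent of how the list was made. Among the 8 higher TRIM genes with a window it was present in 4, namely TRIM5, TRIM14, TRIM21 and TRIM69, and it was not found in the windows of TRIM9, TRIM25, TRIM38 and TRIM56. A match is a run of letters, not evidence of binding.

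The stretches around the core in the antiviral TRIMs are shown to compare its position and spelling, each on the strand of its gene, 5′ to 3′, with the core in capitals. In TRIM21 a pair of overlapping cores in direct orientation begins at positions 18 and 24 from the start (chr11:4393663-4393692, minus strand). In TRIM5 (chr11:5685082-5685111, minus strand), TRIM14 (chr9:98119223-98119322, minus strand) and TRIM69 (chr15:44736456-44736485, plus strand) a single core lies on the opposite strand, with its first base at positions -27, -26 and -62 from the gene's start in that order. In TRIM26 (chr6:30213521-30213620, minus strand) a pair of overlapping cores starts at positions -194 and -188. In TRIM34 (chr11:5624901-5624930, plus strand) the core starts at position -90 from one of 2 RefSeq starts.
TRIM21: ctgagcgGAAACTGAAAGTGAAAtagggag
TRIM5: atagtttatcTTTCACTTTCctgccctgag
TRIM69: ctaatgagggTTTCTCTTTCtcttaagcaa
TRIM34: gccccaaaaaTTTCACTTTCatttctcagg
TRIM14: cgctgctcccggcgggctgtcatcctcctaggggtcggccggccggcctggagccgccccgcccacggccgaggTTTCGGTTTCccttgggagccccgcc
TRIM26: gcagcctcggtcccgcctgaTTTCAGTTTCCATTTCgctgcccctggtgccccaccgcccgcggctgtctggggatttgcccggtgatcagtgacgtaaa

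The core is the same 10 letters in TRIM5 and TRIM34, which are neighbours on chromosome 11. Read on the opposite strand, the core of TRIM21 at position 24 has these letters too. In the same way, the core of TRIM21 at position 18 matches that of TRIM26 at position -194. TRIM26 carries a pair of overlapping cores as TRIM21 does. TRIM21 was 5.36-fold higher, while TRIM26 had a fold of 1.48 and met the rule in neither direction.

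**Figure D3:**
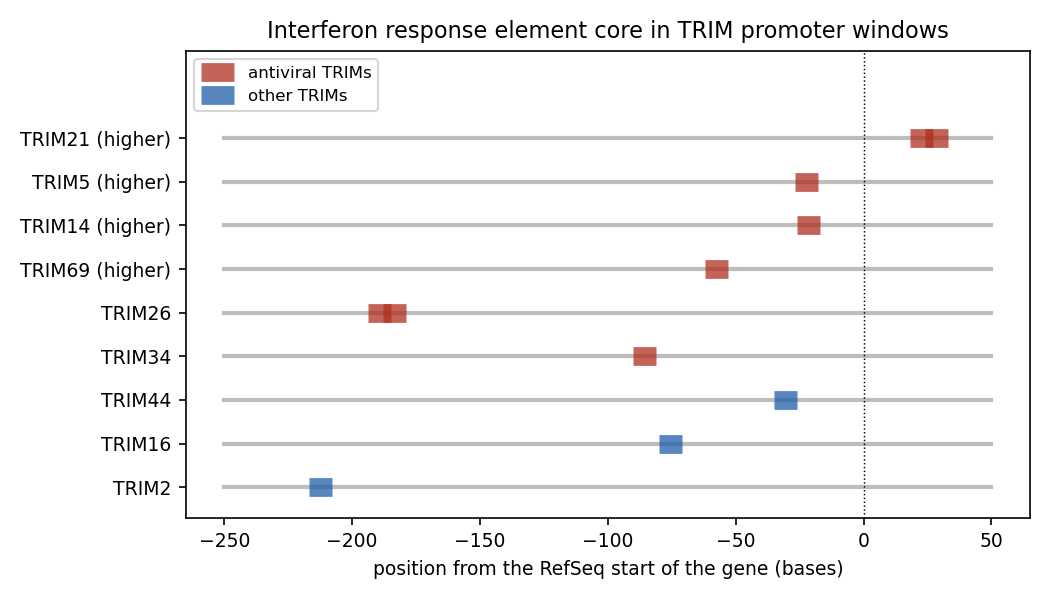
Positions of the interferon response element core in the promoter windows of the 9 TRIM genes that hold it, in bases from the RefSeq start; grey lines span the window, red blocks are antiviral TRIMs and blue blocks other TRIMs. The cores of TRIM21 lie after the start, those of TRIM5, TRIM14 and TRIM44 begin between positions -35 and -26, and those of TRIM26 and TRIM2 begin between -217 and -188.

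Levels can be compared between genes only per length, here as CPM per kilobase of the gene's exons in GENCODE release 29. On that scale TRIM28 ranked first of the 50 genes in both libraries, at 127 with lncPSCA and 139 in control. Of the 5 highest genes, 4 were antiviral in the lncPSCA library (TRIM14, TRIM25, TRIM26 and TRIM21) and 2 in the control library (TRIM14 and TRIM26). TRIM21 stood at rank 5 with lncPSCA and rank 14 in control, at 37.9 and 7.08 CPM per kilobase in that order. TRIM22 stood at rank 20 with lncPSCA and rank 44 in control. TRIM16L stood at rank 7 with lncPSCA and rank 2 in control. TRIM22 thus had the largest fold of the measured TRIMs. On this scale its level in the lncPSCA library, 5.89 CPM per kilobase, was below those of TRIM5, TRIM56 and TRIM69. The order against TRIM56 and TRIM69 depends on the length used. The exons of TRIM22 cover 6020 bases, while its longest transcript has 2989. For TRIM69 these lengths were 9265 and 5691 bases, and for TRIM56 11173 and 10952.

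**Figure D4:**
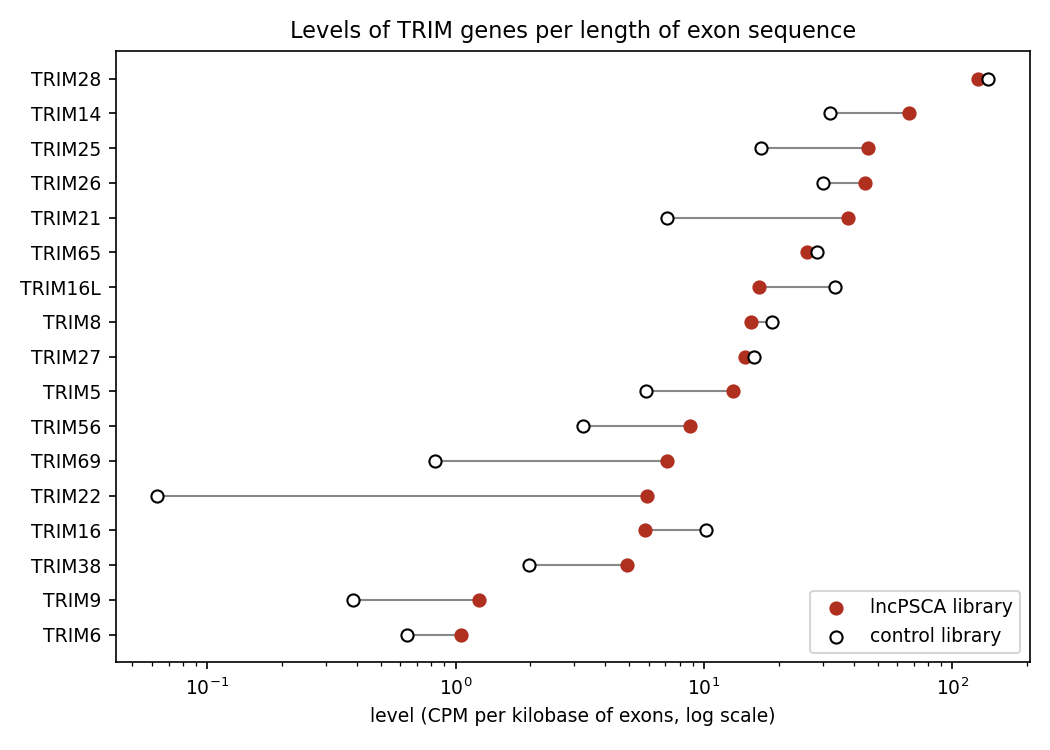
Level of 17 TRIM genes in CPM per kilobase of exons (log scale) in the lncPSCA library (red) and the control library (open circles), ordered by level in the lncPSCA library: the 10 measured antiviral TRIMs, TRIM9, the TRIM16 pair and 4 abundant other TRIMs. TRIM28 lies highest in both libraries, and TRIM22 spans the widest range, at 5.89 with lncPSCA and 0.0630 in control.

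Members that regulate antiviral sensing but were not placed among the antiviral TRIMs did not meet the rule. Over all measured genes 3.02% were higher. The antiviral list also holds regulators of sensing, and both lists were drawn with earlier results of these data known. Their difference is therefore not independent of how the lists were made. Of the 13 genes in this group 10 were measured, and 5 had a log2 ratio above 0 and 5 below, with a median of -0.04. TRIM65, which ubiquitinates the RNA sensor MDA5, had 2416 reads with lncPSCA and 2372 in control, a fold of 0.914 (0.863 to 0.968). TRIM4, a ligase of RIG-I, had 660 and 479 reads in that order, a fold of 1.24 (1.10 to 1.39). TRIM8, a regulator of NF-kB and p53 signalling, had 3474 reads with lncPSCA and 3791 in control, a fold of 0.822 (0.785 to 0.861). TRIM27, which was first described as part of a fusion with the RET kinase, had 2735 reads with lncPSCA and 2689 in control, a fold of 0.913 (0.865 to 0.963). The ARF-domain protein TRIM23 had the largest fold of the group at 1.51 (1.203 to 1.90), with 210 reads with lncPSCA and 125 in control.

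In the same group the fold was 1.37 (1.21 to 1.54) for TRIM68 and 1.195 (1.11 to 1.28) for TRIM44. TRIM35, TRIM32 and TRIM41 had folds of 1.02, 0.938 and 0.933. The 3 members below the CPM minimum were TRIM13, with 15 reads in each library, TRIM29, with 15 reads with lncPSCA and 17 in control, and TRIM31, with 2 reads with lncPSCA and 1 in control. TRIM31 was at or under 3 counts in both libraries, the limit that a count of 0 allows, so no fold is given for it. That limit corresponds to 0.128 CPM in the lncPSCA library and 0.142 CPM in the control library.

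None of the 4 chromatin regulators of the PHD-bromodomain class met the rule, and their median log2 ratio was 0.50. TRIM28, also called KAP1, is the corepressor through which zinc finger proteins silence transposable elements. It had 12027 reads in the lncPSCA library and 11858 in the control library, or 512 CPM with lncPSCA and 562 CPM in control, a fold of 0.910 (0.887 to 0.934). Its log2 ratio of -0.14 changed sign, to 0.02, when ratios were centred along mean expression. TRIM33, a partner of SMAD proteins, had 830 reads with lncPSCA and 487 in control, a fold of 1.53 (1.37 to 1.71). TRIM24, a reader of histone marks, had a fold of 1.42 (1.26 to 1.61), and TRIM66 one of 1.399 (1.21 to 1.62). The intervals of TRIM33, TRIM24 and TRIM66 lay above 1.

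Among partners of TRIM28 in silencing, 1 of 13 measured genes was higher, against 3.02% of all measured genes. None was lower, against 0.596%, and the median log2 ratio was 0.01. The higher gene was the chromatin remodeller ATRX, with 975 reads with lncPSCA and 345 in control, a fold of 2.54 (2.24 to 2.88). The methyltransferase SETDB1, which TRIM28 recruits, had a fold of 1.09 (1.005 to 1.17). The heterochromatin protein CBX3 had 5847 reads with lncPSCA and 9069 in control, a fold of 0.579 (0.560 to 0.598), without meeting the rule. Of the 13 genes, 7 had a log2 ratio above 0 and 6 below. Among the 7, ATF7IP had a fold of 1.70 (1.56 to 1.84), TASOR 1.64 (1.47 to 1.83) and MORC3 1.56 (1.31 to 1.86), also without meeting the rule. All of these genes but ATRX were chosen with their values in view.

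TRIM9 (ENSG00000100505), a neuronal ligase that binds the netrin receptor DCC, was the 1 other TRIM to be higher. It had 261 reads in the lncPSCA library and 73 in the control library, or 11.1 CPM with lncPSCA and 3.46 CPM in control, a fold of 3.21 (2.47 to 4.22). It no longer met the rule when a coefficient of variation of 0.4 was assumed. TRIM36, of the same domain class and known to bind microtubules, had a fold of 1.60 (1.34 to 1.91). TRIM46, which bundles microtubules in axons, had 17 reads with lncPSCA and 1 in control, a ratio of 15.3 (2.39 to 638). At a mean of 0.385 CPM it was below the minimum of the rule. The sarcomere proteins TRIM54, with 6 reads with lncPSCA and 7 in control, and TRIM55, with 0 reads with lncPSCA and 1 in control, were close to absent from the counts.

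TRIM16L (ENSG00000108448) was the 1 TRIM gene to be lower. It is a shortened relative of TRIM16, a RING-less member that binds galectins at damaged lysosomes. TRIM16L had 1687 reads in the lncPSCA library and 3086 in the control library, which was 2.04-fold lower (1.92 to 2.16). TRIM16 (ENSG00000221926) had 768 reads with lncPSCA and 1212 in control, a fold of 0.569 (0.519 to 0.623), short of the rule. The genes share sequence, and how reads were split between them is uncertain; summed, they had 2455 reads with lncPSCA and 4298 in control, a fold of 0.513 (0.488 to 0.539). The call for TRIM16L was lost under total-count scaling, with the log2 ratio at -0.97, under both ways of centring, and when a coefficient of variation of 0.2 was assumed.

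The NHL-repeat members, some of which bind RNA, showed no gene that met the rule. TRIM2, which ubiquitinates neurofilament light chain, had 321 reads with lncPSCA and 192 in control, a fold of 1.5004 (1.25 to 1.80). TRIM3 had 396 reads with lncPSCA and 398 in control, a fold of 0.893 (0.775 to 1.03). TRIM71, a stem cell protein and the relative of worm LIN-41, had 3 reads with lncPSCA and 2 in control.

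None of the 10 measured genes among the 12 remaining members met the rule, and their median log2 ratio was 0.12. The most abundant by CPM was TRIM11, with 1834 reads with lncPSCA and 1868 in control, a fold of 0.881 (0.826 to 0.940). TRIM37, a ligase that limits centrosome assembly and is mutated in mulibrey nanism, had 904 reads with lncPSCA and 749 in control, a fold of 1.08 (0.982 to 1.19). TRIM7, which binds the glycogen primer glycogenin, lay lowest at 0.662 (0.598 to 0.733), and TRIM59 lay highest at 1.33 (1.12 to 1.59). TRIM47, TRIM62, TRIM45, TRIM52, TRIM39 and TRIM17 lay between them, at 1.28, 1.28, 1.10, 1.08, 1.05 and 0.673. Genes on the opposite strand overlap 51.5% of the exon bases of TRIM47, 28.5% for TRIM52, 19.8% for TRIM59 and 12.2% for TRIM39. On the same strand TRIM39 shares 29.5% and TRIM59 14.5%. The values of these genes are therefore uncertain. Smaller overlaps on the opposite strand exist for TRIM37, TRIM7, TRIM11, TRIM62 and TRIM17. TRIM15 had 10 reads in each library and TRIM58, an erythroid ligase, had 0 reads in both. Over all 30 measured other TRIMs, 13 had a counting interval above 1, 9 had one below 1 and 8 spanned 1. The matching shares over all measured genes were not computed, so these counts are not read as a trait of the TRIMs.

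By position, 10 of the 50 genes lie on chromosome 11, and 3 of the 8 measured there were higher (TRIM5, TRIM21 and TRIM22). TRIM3, TRIM6, TRIM44, TRIM66 and TRIM68 on the same chromosome met the rule in neither direction. In GENCODE release 29 TRIM22 and TRIM5 lie on opposite strands and share no exon bases. On chromosome 6 the 6 members include TRIM38, which was higher, and TRIM26, TRIM27 and TRIM39, which met the rule in neither direction. On chromosome 17 TRIM25 was higher and TRIM16L lower, and on chromosome 5 none of 5 measured members met the rule. Over all measured genes 3.02% were higher. The share for each chromosome was not computed, so these counts are not read as a result of position. The higher genes on chromosome 11 are all antiviral TRIMs.

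Transcript length moved with the ratio across the table and was therefore set beside the family. Across the 14993 measured genes with a length, the Spearman correlation of longest transcript length with log2 ratio was 0.236, a description over genes that share both libraries. It was 0.280 over the 30 other TRIMs and -0.07 over the 10 antiviral TRIMs. The median longest transcript was 3966 bases for antiviral TRIMs, 4280 bases for other TRIMs and 3271 bases for all measured genes. Centred along length, the median log2 ratio was 1.18 for antiviral TRIMs and 0.09 for other TRIMs, with 8 and 1 genes higher in that order.

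Of 24 further genes of the family or close to it, 4 were measured and 1 was higher, against 3.02% of all measured genes. This was PML, the organiser of PML nuclear bodies, which is also called TRIM19; it had 3962 reads with lncPSCA and 688 in control, a fold of 5.17 (4.77 to 5.61). RNF135, known as Riplet and a RIG-I ligase without B-boxes, had 733 reads with lncPSCA and 716 in control, a fold of 0.919 (0.828 to 1.02). MID1, a microtubule-bound ligase, had a fold of 0.824 (0.680 to 0.997), and TRIML2 had one of 0.763 (0.468 to 1.24); RNF135, MID1 and TRIML2 are the other measured genes of that list.

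Of 14 conjugating enzymes with which TRIM ligases work, all were measured and 1 was higher, against 3.02% of all measured genes. This was UBE2L6, the enzyme that carries the ubiquitin-like modifier ISG15, with 5349 reads with lncPSCA and 436 in control, a fold of 11.0 (9.98 to 12.2). Of the other 13 enzymes, 1 had a log2 ratio above 0, against 48.1% of all measured genes. The median over all 14 was -0.23. UBE2N, which builds K63-linked chains, had a fold of 0.664 (0.620 to 0.712), and its partner UBE2V2 one of 0.611 (0.564 to 0.662). UBE2D3, a general partner of RING ligases, had a fold of 0.895 (0.857 to 0.936). UBE2N, UBE2V2 and UBE2D3 were named after their values were seen.

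Among 18 sensing proteins that TRIMs modify or bind, 15 were measured and 4 were higher, against 3.02% of all measured genes. None was lower, against 0.596%. One of the 4, IFIH1, reached the CPM minimum only through the lncPSCA library, so its inclusion required a difference. RIGI, the RNA sensor that TRIM25 modifies, had 4883 reads with lncPSCA and 95 in control, a fold of 46.1 (37.7 to 57.1). DHX58, which encodes LGP2, a regulator of RIG-I, had 1510 reads with lncPSCA and 30 in control, a fold of 45.2 (31.5 to 67.2). IFIH1, which encodes MDA5, the target of TRIM65, had 88 reads with lncPSCA and 0 in control, at least 26.3-fold higher against the 3 counts that a count of 0 allows in the control library, with the 88 reads taken as exact. The lower limit of its exact counting interval, which covers the error of both counts, was 21.0. ZC3HAV1, the gene of ZAP, had 3180 reads with lncPSCA and 1203 in control, a fold of 2.37 (2.22 to 2.54). Downstream of the sensors, MAVS had a fold of 0.986 (0.916 to 1.06), TBK1 one of 0.868 (0.731 to 1.03) and IRF3 one of 1.08 (0.995 to 1.17), and none of them met the rule; these 3 were named after their values were seen. IKBKE, the gene of the kinase that TRIM6 chains activate, and IKBKG, a subunit of the IKK complex that most cells express, were listed at 0 in both libraries. Rows were matched by current gene identifiers, so these zeros are not read as the genes' levels; both genes were named after their values were seen.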

How the data were processed

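RNA of 2 HGC-27 libraries, 1 per group, was sequenced. The authors deposited raw read counts per Ensembl gene in 1 table. Per the submitters' processing notes, the tools were TopHat2 and HTSeq and the build was hg19; their versions, the annotation release, strand setting and library kit are not stated there or in the labels. With the strand setting unknown, reads of genes that overlap on opposite strands cannot be told apart, and the split of reads between near-identical genes is uncertain.

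Symbols were matched for 52181 of 63677 rows. Counts were scaled by TMM (edgeR 4.0.16, R 4.3.3), and log2 ratios were taken after adding a pseudocount of 1. Folds are ratios of CPM with exact Clopper-Pearson counting intervals (SciPy 1.17.1). With 1 library per group no test was possible. Exon lengths and overlaps came from GENCODE release 29, an annotation of another build (GRCh38), matched by gene identifier. In it 25 of the 50 genes share exon bases with another gene. Promoter sequences came from RefSeq (GRCh38.p14).

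Values of both libraries were given for members that met the rule, for all antiviral TRIMs and, in role groups where no member met it, for the 2 most abundant; the same held for partner lists, and any member could be named. The members, the lists and the rule were chosen with earlier results of these data known. Alternatives tried were scaling by total counts, by upper quartile or by DESeq2 1.42.0 size factors, other minimums, pseudocounts and fold limits, assumed coefficients of variation of 0.2 and 0.4, and centring along mean expression. Centring along transcript length (statsmodels 0.14.6) was added after seeing the data.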

Additional observations from a re-analysis of the deposited data

How the results depend on the processing

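Each group has 1 library, so leaving out a replicate was not possible. No paired analysis was possible because each group has 1 library. Over 13 alternatives, TRIM21, TRIM22 and TRIM69 met the rule in all 13, TRIM9 in 12, TRIM25 and TRIM56 in 11, TRIM5, TRIM14 and TRIM38 in 10 and TRIM16L in 7. The number of lower TRIM genes was 0 under total counts, a 3-fold limit, either assumed coefficient of variation and either centring, and 3 at a 1.5-fold limit. Higher TRIM genes numbered 4 at a 3-fold limit (3 antiviral) and 3 when a coefficient of variation of 0.4 was assumed (3 antiviral, 0 other); at 0.2, 5 antiviral TRIMs were higher. Other TRIMs that were higher numbered 2 with no CPM minimum, which admitted TRIM46, and 4 at a 1.5-fold limit. The antiviral median was 1.18 when centred along length. Signs turned for TRIM35 under upper-quartile scaling (-0.0025), TRIM28 and TRIM41 when centred along mean expression (0.0214 and 0.0257) and TRIM44 when centred along length (-0.0679). Over all genes, higher and lower counts were 284 and 46 at a minimum of 5 CPM, 1624 and 835 at 1.5-fold, 197 and 20 at 3-fold, 212 and 27 at a coefficient of variation of 0.2, and 105 and 5 at 0.4; 150 genes were lower with no minimum. The limits and minimums change counts by their construction; for the scalings and centrings the cause was not tested. The 10 members below 1 CPM could not meet the rule at that minimum; whether more depth would change this was not tested.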

Other observations

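Some TRIM-related rows that are not members were looked at after their values were seen. TRIM51G, a member of a cluster of near-identical copies on chromosome 11, had 318 reads with lncPSCA and 143 in control, a fold of 1.996 (1.63 to 2.45), just short of the size rule. Its relative TRIM51CP had 60 reads with lncPSCA and 98 in control, a fold of 0.549 (0.392 to 0.765). How reads were split among these copies is uncertain. Transcripts beside TRIM genes showed folds near 1: TRIM8-DT had 499 reads with lncPSCA and 434 in control (1.03, 0.905 to 1.18), and TRIM52-AS1 had 242 reads with lncPSCA and 226 in control (0.961, 0.798 to 1.16). The read-through gene TRIM39-RPP21, which shares 29.5% of the exon bases of TRIM39 in GENCODE release 29, had 0 reads in both libraries.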
